A study of Mus musculus with 8 samples.

Results

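The neurotrophins and their receptors were examined in the mouse hippocampus at 3 months of age (3M, young adults) and at 29 months (29M, near the end of the life span). The group consisted of 7 genes taken by name: Bdnf, Ntf3 and Gdnf, which encode secreted growth factors, Ntrk2, Ntrk3 and Ngfr, which encode neurotrophin receptors, and Vgf, which encodes a neuropeptide precursor induced by neurotrophins. All 7 were found, with 12 named probes among the 39408 probes tested (7 of 19742 named genes). Probes left without a gene name, some of which may read members, were not counted. All mice were untreated C57BL/6J wild types aged in their home cages, the 29M animals having been bought at old age and kept further by the study, and the labels give no sex. RNA of the hand-dissected whole hippocampus was labelled with Cy3, and 4 samples of each age were hybridised to 1 array each of a 1-colour mouse 4x44K design. The arrays lay on 3 slides, each with both ages. Slide 1 held replicate 1 of 3M and replicates 3 and 4 of 29M, and slide 2 held replicate 2 of each age. On slide 3 were replicates 3 and 4 of 3M and replicate 1 of 29M. A change within a slide thus rests on very few arrays. The labels do not say whether a sample was 1 animal or a pool, and p-values measure the spread between these samples only.

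Neurotrophins are made as proneurotrophins and cleaved to mature dimers. Mature BDNF binds the receptor tyrosine kinase TrkB (Ntrk2), neurotrophin-3 (Ntf3) binds TrkC (Ntrk3), and the proforms bind p75NTR (Ngfr) together with sortilin. In the hippocampus BDNF is made by glutamatergic neurons in response to activity and is needed for long-lasting potentiation of synapses. Both Ntrk2 and Ntrk3 give rise to full-length receptors with a kinase domain and to truncated forms without it, and the truncated TrkB is the main TrkB form of astrocytes.

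The share of probes well above background ranged from 75.5% to 84.5% per array, and no member probe was saturated. Replicate 1 of 3M was the array with the lowest share. Of the 12 member probes, 11 were well above background on all 8 arrays, the exception being the probe of Gdnf. As a check of the tissue, all 10 neuron markers and all 10 markers of hippocampal subfields were above background on every array. The same held for all 12 markers of neighbouring brain regions, so that those genes were detected too. The brightness of a probe cannot be compared between genes, and in whole tissue fewer cells of a type and less RNA per cell cannot be told apart.

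Several member genes have more than 1 transcription start, which an array probe does not separate. The table of RefSeq promoters used here (GRCm38.p6) holds starts for 5 of the 7 members, 13 in all: 7 for Bdnf, 2 each for Ntf3 and Gdnf, and 1 each for Ntrk2 and Ngfr. A pair of them is shown, because Bdnf has 7 listed starts and 1 named probe, whereas Ntrk2 has 1 listed start and 3 named probes. Each runs from 250 bases before the start to 50 bases after it, and capitals mark the core of the cAMP response element (TGACG on either strand). The Bdnf window is the third of its 7 (chr2:109692186-109692485, plus strand), and the Ntrk2 window lies at chr13:58806319-58806618 (plus strand).
Bdnf: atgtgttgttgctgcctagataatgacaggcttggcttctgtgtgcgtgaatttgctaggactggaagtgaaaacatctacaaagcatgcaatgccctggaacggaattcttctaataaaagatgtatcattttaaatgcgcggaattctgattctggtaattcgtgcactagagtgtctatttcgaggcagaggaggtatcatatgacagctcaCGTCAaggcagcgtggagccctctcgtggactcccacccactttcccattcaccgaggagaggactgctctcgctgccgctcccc
Ntrk2: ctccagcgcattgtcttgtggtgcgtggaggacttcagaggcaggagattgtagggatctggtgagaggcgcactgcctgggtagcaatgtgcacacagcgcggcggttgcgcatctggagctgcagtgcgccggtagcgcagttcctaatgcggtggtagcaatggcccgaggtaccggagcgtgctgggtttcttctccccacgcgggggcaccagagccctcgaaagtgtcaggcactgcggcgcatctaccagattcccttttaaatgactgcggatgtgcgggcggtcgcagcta

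The core was found in 1 of the 7 Bdnf windows, 35 bases before the start, and in 1 of the 2 Gdnf windows. It was not in those of Ntf3, Ngfr or Ntrk2. Over all 32851 windows of this length in the table, 20.8% held it. The full element TGACGTCA was in none of the 13 member windows and in 1.79% of all windows. GC content was 48.7% in the Bdnf window and 61.3% in that of Ntrk2, with a median of 52.7% over all windows. These counts describe letters only.

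The comparison asked whether transcripts of the neurotrophin system differ in level between the ages. A call required that the log2 change reach 0.5 in either direction, or 1.41-fold, and that the adjusted p be under 0.1. Only 1 of the 12 member probes was called, a probe of Ntrk3 that was lower in 29M. No member probe was called higher in limma's test, and at an unadjusted p under 0.05 there were 0 higher and 2 lower. Over all probes 2.08% were called, 1.26% (497) as higher and 0.815% (321) as lower, and 16.9% had an unadjusted p under 0.05. These counts moved with single arrays, to 824 higher and 611 lower without replicate 1 of 3M and to 256 and 136 without replicate 1 of 29M. The median log2 change of the 12 probes was -0.10, against 0.00 over all tested probes, and 9 of the 12 were below 0. Changes of this size are common on these arrays: over all probes the absolute log2 change had a median of 0.13 and a 95th percentile of 0.49. The groups did not overlap for 2 of the 12 member probes and for 11.0% of all probes.

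**Figure D1:**
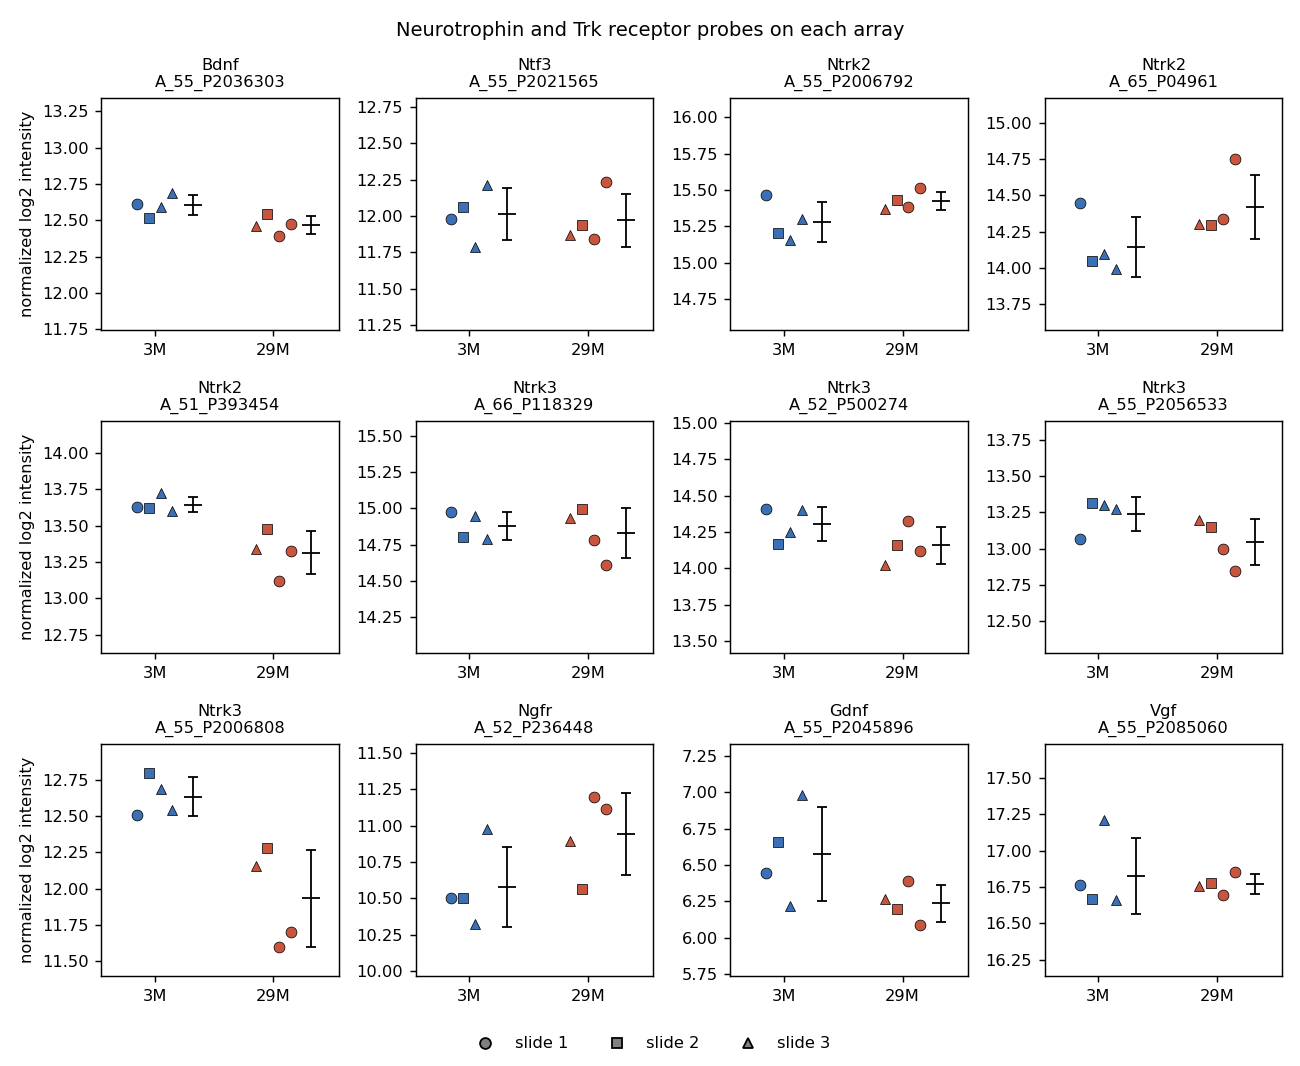
Normalized log2 intensity (y axis, each panel spanning the same log2 range) of the 12 member probes on the 4 arrays of 3M (blue) and the 4 of 29M (red). Each point is 1 array, its shape gives the slide, and the bars are the mean and SD (n = 4). The groups are apart in the panels of Ntrk2 A_51_P393454 and Ntrk3 A_55_P2006808 only.

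Among the ligands, Bdnf stayed within a narrow range. Its normalized log2 intensities were 12.62, 12.52, 12.59 and 12.69 in replicates 1 to 4 of 3M and 12.46, 12.54, 12.39 and 12.48 in those of 29M. All 29M arrays but 1 lay below all of 3M, and replicate 2 of 29M lay above replicate 2 of 3M, so that the groups overlapped by that array. Young mice had a mean of 12.60 ± 0.07 (SD, n = 4) and old mice one of 12.47 ± 0.06 (SD, n = 4). The log2 change of -0.14 (SE 0.08) did not pass, with a limma adjusted p of 0.412. The 95% interval ran from -0.31 to 0.04, which leaves out a change of the size set for a call in either direction. Within slides the change was -0.18, 0.03 and -0.18 on slides 1, 2 and 3. The single probe (A_55_P2036303) carries the accession of 1 Bdnf transcript, and which of the alternative first exons it reads with is not given.

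Ntf3, the ligand of TrkC, did not pass the test either. Its values ran from 11.79 to 12.22 in 3M and from 11.84 to 12.24 in 29M, and the ranges were almost the same. The change of -0.04 on the log2 scale had an SE of 0.12 and a 95% interval from -0.32 to 0.23 (limma adjusted p 0.897).

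Gdnf encodes a factor of another family, which signals through Gfra1 and Ret. Its values were 6.45, 6.66, 6.21 and 6.98 in 3M, and 6.26, 6.20, 6.39 and 6.09 in 29M, where 3 of the 4 arrays were well above background. Replicates 1, 2 and 4 of 3M lay above all arrays of 29M, and replicate 3 of 3M lay among them. The log2 change of -0.34 (SE 0.15, limma adjusted p 0.304, 95% interval -0.69 to 0.01) did not pass. It was below 0 on each slide (-0.21, -0.46 and -0.33), and ran from -0.59 (processed signals scaled to the 75th percentile) to -0.20 (without replicate 4 of 3M) over 17 alternative settings.

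Among the receptors, Ntrk2 (TrkB) was read by 3 probes that went different ways. The probe A_51_P393454, spotted 10 times per array, gave 13.63, 13.62, 13.73 and 13.60 in 3M and 13.34, 13.47, 13.12 and 13.33 in 29M. Every array of 29M was below every array of 3M. The log2 change of -0.33 (SE 0.09, 95% interval -0.54 to -0.12) was a 0.795-fold level, under the size set for a call and with a limma adjusted p of 0.122. On all 3 slides it was below 0 (-0.41, -0.15 and -0.32). The SD between its spots on 1 array was 0.172 to 0.230, and 1 spot on replicate 1 of 29M was left out as an outlier.

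The other 2 probes of Ntrk2 were higher on average in 29M. The brightest, A_55_P2006792, which carries the same RefSeq accession (NM_001025074) as the lower probe, had values from 15.15 to 15.47 in 3M and from 15.37 to 15.51 in 29M. Its log2 change was 0.14 (SE 0.09, limma adjusted p 0.470). A_65_P04961, with the accession NM_008745, had 14.45, 14.05, 14.10 and 13.99 in 3M and 14.31, 14.29, 14.33 and 14.75 in 29M. Only replicate 1 of 3M overlapped with 29M. The change was 0.27 (SE 0.14, limma adjusted p 0.351, 95% interval -0.03 to 0.58).

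Ntrk3 (TrkC) was read by 4 probes, and their changes were all below 0. The called probe, A_55_P2006808, gave 12.51, 12.80, 12.69 and 12.55 in 3M, and 12.16, 12.28, 11.60 and 11.70 in 29M. The groups were separate, and the lowest 29M arrays were replicates 3 and 4, both on slide 1. The mean was 12.63 ± 0.13 (SD, n = 4) in young mice. In old mice it was 11.93 ± 0.33 (SD, n = 4), and the level thus fell by 0.70 on the log2 scale (SE 0.16, limma adjusted p 0.0680), to 0.615-fold. By size of change it ranked 706 of 39408 probes. Within slides it was -0.86, -0.52 and -0.46, and over 17 alternative settings it ran from -0.82 to -0.60. The call was lost in 8 of these, when the processed signals were scaled to the 75th percentile instead (limma adjusted p 0.144), with a block for the replicate number (0.124), and without any 1 of 6 arrays (3M replicates 2, 3 and 4, and 29M replicates 1, 3 and 4, limma adjusted p 0.103 to 0.180).

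The other 3 probes of Ntrk3 were not called. A_52_P500274, which shares the accession NM_182809 with the called probe, was lower by a mean log2 difference of -0.15 (SE 0.10, limma adjusted p 0.473). That of A_55_P2056533 was -0.19 (SE 0.10, limma adjusted p 0.387) and that of A_66_P118329, the brightest, -0.05 (SE 0.10, limma adjusted p 0.860), both with the accession NM_008746. Their 95% intervals lay within -0.42 and 0.18. The interval of the called probe, -1.06 to -0.35, overlapped those of A_52_P500274 (-0.37 to 0.07) and A_55_P2056533 (-0.42 to 0.04). It did not overlap that of A_66_P118329 (-0.28 to 0.18). The values of the 2 ages overlapped for all 3 of these other probes. On processed signals the change of A_52_P500274 was -0.06 (75th percentile) and -0.04 (variance stabilised), and that of A_55_P2056533 was -0.13 without replicate 4 of 29M.

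**Figure D2:**
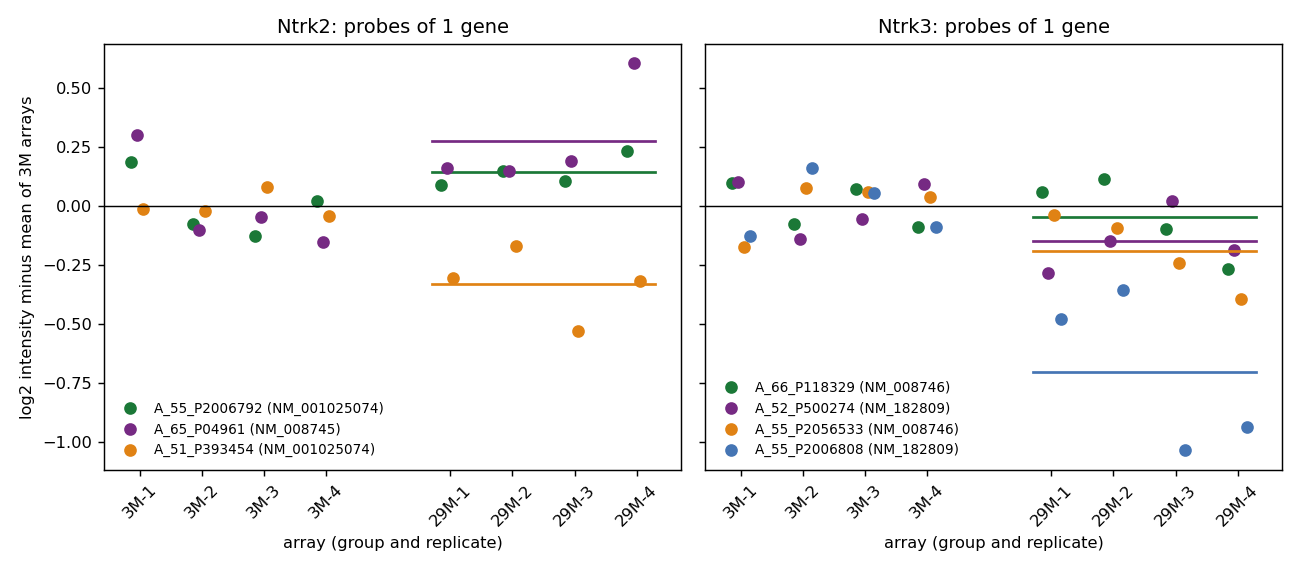
Log2 intensity of each probe of Ntrk2 (left, 3 probes) and Ntrk3 (right, 4 probes) on each array (x axis, group and replicate), relative to the mean of that probe over the 3M arrays. Points are single arrays, set slightly apart for each probe, and lines are the 29M means. For Ntrk2 1 probe lies below and the others lie above 0 in 29M, and for Ntrk3 the called probe lies at a mean of -0.70 while the others lie between -0.19 and -0.05.

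Whether probes of the same gene changed differently was tested on the differences between 2 probes within each array. This test was added after the values above had been seen. It was fitted in limma over all 7550 pairs of probes of 1 gene, of which 1.92% were called, and the groups did not overlap for 9.36% of the pairs. Of the 9 pairs of Ntrk2 and Ntrk3 probes, 1 was called and 4 had separate groups. All 4 held A_51_P393454 or A_55_P2006808, the 2 member probes whose own groups were separate. The pairs are thus not independent of each other or of those probes. The called pair was that of the brightest Ntrk3 probe (A_66_P118329) and A_55_P2006808. Their difference was 2.47, 2.01, 2.26 and 2.24 in 3M, and 2.78, 2.72, 3.18 and 2.91 in 29M. It widened by 0.65 (SE 0.14, limma adjusted p 0.0709), a call that was lost in 9 of 16 alternative settings while the value stayed between 0.56 and 0.73. The losing settings were the scaling to the 75th percentile, the variance stabilising model on processed signals, the replicate block, and leaving out any array but replicate 1 of 3M and replicate 3 of 29M. The fourth separate pair was that of A_55_P2056533 and the same probe, which was 0.51 larger in 29M (SE 0.12, limma adjusted p 0.105). The difference between A_52_P500274 and A_55_P2006808, which share an accession, was 0.55 larger in 29M (SE 0.21, limma adjusted p 0.255), and its groups overlapped.

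For Ntrk2 the difference between A_55_P2006792 and A_51_P393454, which share an accession, was 1.84, 1.58, 1.43 and 1.70 in 3M, and 2.03, 1.95, 2.27 and 2.19 in 29M. The groups were separate. The mean was 0.47 larger in 29M (SE 0.12, 95% interval 0.20 to 0.74), with a limma adjusted p of 0.115. Between A_65_P04961 and A_51_P393454 the difference was 0.61 larger in 29M (SE 0.16, 95% interval 0.25 to 0.96, limma adjusted p 0.123), and the groups were separate there too. Over 16 alternative settings the first of these pairs was called in 1 and the second in 3, with limma adjusted p up to 0.274 and 0.283. Both were called without replicate 1 of 3M, at 0.54 (limma adjusted p 0.0619) and 0.71 (0.0550). Leaving out that array also raised the calls over all probes, to 824 higher and 611 lower. The second pair was also called with normexp and quantile normalization (0.0922) and with slide as a fixed block (0.0911). The target positions of the probes were not in the sources used here, and which receptor form each of them reads is not known.

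The mean log2 intensity over all 8 astrocyte markers was 14.17 to 14.25 in 3M and 14.28 to 14.47 in 29M, with 5 of 8 above 0 in change on the brightest probe and 1 of 8 called, as higher (Gfap, which encodes an intermediate filament of astrocytes). Without Gfap the ranges of the other 7 touched, at 14.00 to 14.04 in 3M and 14.04 to 14.20 in 29M. All 8 were well above background on every array. Over the 10 neuron markers the mean was 15.67 to 15.81 in 3M and 15.67 to 15.72 in 29M, with 0 called in limma's test and 2 lower and 0 higher at an unadjusted p under 0.05. The microglia list was apart, at 13.78 to 14.06 in 3M and 14.15 to 14.31 in 29M, with 1 of 8 called higher (C1qa, a subunit of complement C1q), and it was still apart without C1qa (13.91 to 14.20 and 14.26 to 14.40). The ranges of the ages overlapped for oligodendrocytes (14.57 to 14.92 and 14.79 to 14.89), their precursors (12.05 to 12.61 and 12.15 to 12.45, with Gpr17 called lower), endothelial and mural cells (12.70 to 12.83 and 12.73 to 13.00) and meninges (11.97 to 12.25 and 11.61 to 12.61). They also overlapped for choroid plexus (13.78 to 15.02 and 14.38 to 14.77), hippocampal subfields (12.39 to 12.68 and 12.21 to 12.78) and neighbouring regions (10.74 to 10.87 and 10.62 to 10.78). At an unadjusted p under 0.05 in limma's test, 6 of 8 microglia genes had a higher probe and 0 a lower one. Oligodendrocytes had 3 higher and 0 lower, as had endothelial and mural cells. Astrocytes had 2 and 1, precursors 1 and 1, meninges 2 and 0, and neighbouring regions 2 and 2. Subfields had 0 and 1, and choroid plexus 0 and 0. Over all named genes 11.5% had a higher and 9.61% a lower probe. The part of these cell types in the Ntrk2 and Ntrk3 values was not tested.

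Ngfr, which encodes p75NTR, had the largest positive change among the members. Its probe, spotted 10 times, gave 10.50, 10.50, 10.33 and 10.97 in 3M, and 10.89, 10.56, 11.20 and 11.12 in 29M. Replicate 4 of 3M overlapped with 29M, and the other 3M arrays lay below. The log2 change of 0.37 (SE 0.17, 95% interval -0.02 to 0.75) did not pass, with a limma adjusted p of 0.321. It differed between slides, at 0.65, 0.06 and 0.25, while the SD between spots of 1 array was 0.111 to 0.204.

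Vgf gave 16.76, 16.67, 17.21 and 16.66 in 3M, and 16.76, 16.78, 16.69 and 16.85 in 29M. Replicate 3 of 3M was the highest, and the other 7 arrays lay close together. Between the means lay -0.06 on the log2 scale (SE 0.13, limma adjusted p 0.867, 95% interval -0.34 to 0.23), and the change was 0.07 without replicate 3 of 3M.

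**Figure D3:**
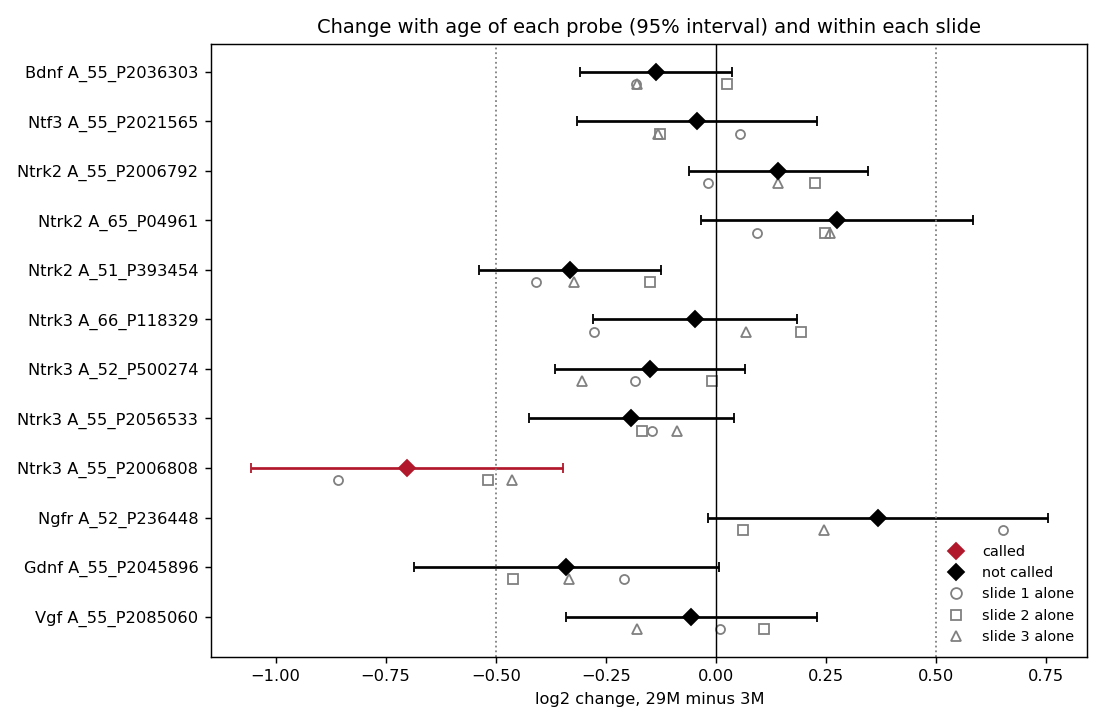
Log2 change from 3M to 29M (x axis) of each member probe, with the 95% interval of limma's moderated estimate (diamonds, red where called) and the change within each slide below it (open symbols). Dotted lines mark the minimum change for a call, 0.5 in either direction. The called Ntrk3 probe is the only one whose mean change lies past a dotted line, and its change is below 0 on every slide.

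The partners that bind the members directly were looked at next, and none of those given here was called. For Ntf5, a ligand of TrkB, the mean difference on the log2 scale was 0.14 (limma adjusted p 0.767). Sort1, the sortilin that pairs with p75NTR, was 0.33 higher on its dimmer probe (A_51_P517145), with 9.18 to 9.27 in 3M and 9.40 to 9.71 in 29M and a limma adjusted p of 0.123. Its brighter probe was 0.12 higher (limma adjusted p 0.549) and its groups overlapped. Of the GDNF receptors, Gfra1 had a change of 0.10 (limma adjusted p 0.608) and Ret one of -0.34 (0.398). Over 17 alternative settings that of Gfra1 ran from 0.06 to 0.15 and that of Ret from -0.49 to -0.19 (without replicate 4 of 3M). Gfra2, a receptor of the related factor neurturin, had separate groups, with 13.90 to 14.26 in 3M and 13.51 to 13.75 in 29M. Its change of -0.34 (SE 0.10, 95% interval -0.58 to -0.11) had a limma adjusted p of 0.143.

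Beyond these genes, 7 lists of the wider pathway were counted, where 1 called probe sufficed to count a gene. Of 147 measured genes, 3 were called higher and 2 lower, where over all named genes 1.86% had a probe called higher, 0.897% a probe called lower and 2.76% either. The median change over these genes was 0.03, against 0.01 over all named genes, with the brightest probe of each. At an unadjusted p under 0.05, 23 of the 147 had a higher and 19 a lower probe, where 11.5% and 9.61% of all named genes had one, and 53.0% of all named genes were above 0 on their brightest probe.

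Among 14 genes that cleave proneurotrophins or control their cleavage, 2 were called higher and 1 lower, where 1.86% and 0.897% of all named genes were. The list was chosen with earlier results of these data known. Mmp3, a matrix metalloprotease, was not well above background on any array of 3M and was so on 3 of 4 of 29M, so that its level was at least 3.24-fold higher with the normalization used here (limma adjusted p 0.0577, with the lowest 29M array within the range of 3M). Mmp7, another such protease, fell by 0.71 on the log2 scale (SE 0.15, limma adjusted p 0.0543), from 6.81 to 7.35 in 3M to 6.01 to 6.50 in 29M. The call of Mmp7 was lost in 6 of 17 alternative settings and that of Mmp3 in 7 of 16. The fitted log2 change of Mmp3 ran from 1.35 (normexp and quantile normalization, less than the 3.24-fold figure) to 4.08 (processed signals scaled to the 75th percentile).

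Among 26 other neurotrophic factors and their receptors, 1 was called in each direction, where 1.86% of all named genes were called higher and 0.897% lower. Cntfr, the binding subunit of the ciliary neurotrophic factor receptor, was at 12.57 to 13.02 in 3M and 9.74 to 11.30 in 29M. The change of -2.07 (SE 0.28, limma adjusted p 0.0108) was called in all 17 alternative settings, ranging from -2.30 to -1.78. Bmp7, a secreted factor of the bone morphogenetic protein family, rose by 0.74 (SE 0.14, limma adjusted p 0.0432), from 11.03 to 11.70 in 3M to 11.97 to 12.26 in 29M, and its call was lost in 5 of 17 settings. Each of the called genes named here was measured by 1 named probe.

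The other lists had no called gene. Over all named genes 11.5% had a higher and 9.61% a lower probe at an unadjusted p under 0.05, and 53.0% were above 0 on the brightest probe. For the 55 adaptors and kinases downstream of Trk receptors the changes on the brightest probes ran from -0.68 to 0.84, with a median of 0.08, and 11 genes had a higher and 5 a lower probe at an unadjusted p under 0.05. Of 11 genes of the GDNF family and its receptors, 10 were below 0 (median -0.18), and 4 had a lower and 0 a higher probe at that level. Of these lower genes Gfral was not well above background on any array, and Pspn, which did not pass at that level, was well above it on 2 arrays of 3M and 3 of 29M. For 14 other neurotrophin ligands and receptors the median was -0.03, with 2 higher and 4 lower at an unadjusted p under 0.05. The 18 regulators of Bdnf transcription had a median of 0.01 (2 higher, 1 lower), and the 9 granins and prohormone-processing genes a median of 0.03 (1 higher, 1 lower). Vgf belongs to the granin family.

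**Figure D4:**
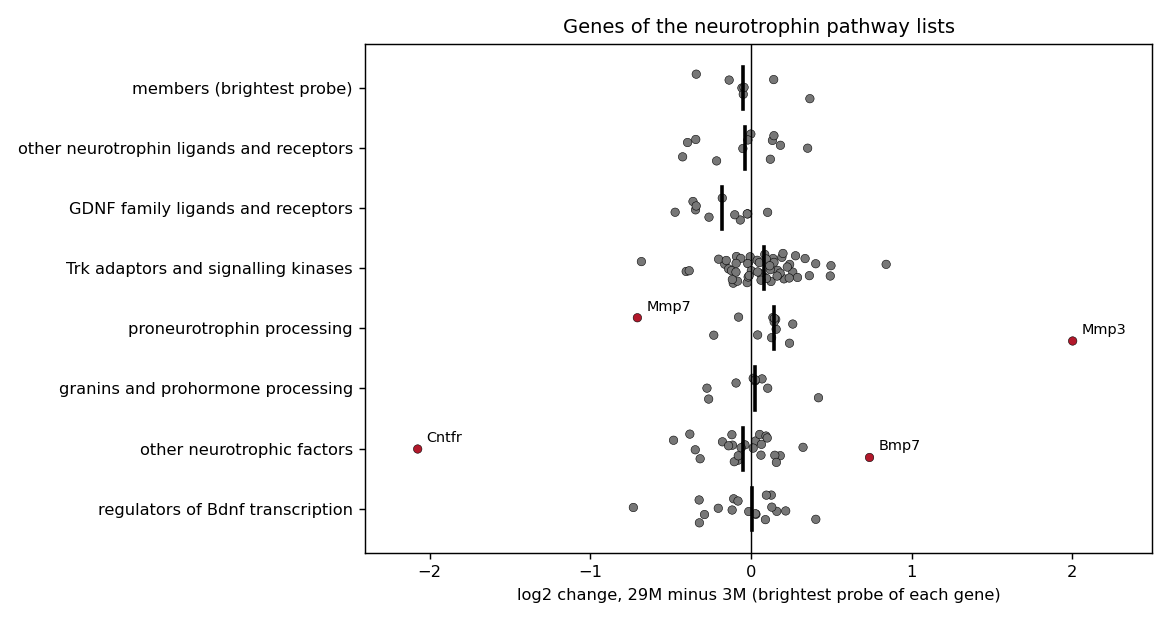
Log2 change from 3M to 29M (x axis) of the brightest probe of each gene, for the 7 members and the 7 pathway lists (rows). Points are genes, red where that probe was called, with the gene named, and thick lines are medians over all measured genes of a list, 3 of which are not drawn. Most genes lie within 0.5 of 0, and Cntfr (-2.07) and Mmp3, whose 3M signals were not well above background, lie farthest out.

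Finally the genes whose pattern over the 8 arrays was most like that of a member were listed, among 15920 other genes with a probe well above background on all arrays. For Bdnf they were C1rl, Mcm6 and Ap5z1 (Pearson r 0.93, 0.92 and 0.92), and for Ntf3 Thyn1, Plcb2 and Vmn1r89 (0.97, 0.95 and 0.95). For the brightest probe of Ntrk2 they were Vps50, Suz12 and Ncl (0.99, 0.98 and 0.98), and for that of Ntrk3 Dtnb, Tug1 and St7 (0.98, 0.95 and 0.93). Smtn, Kif13a and Nt5dc1 were most like Ngfr (0.98, 0.97 and 0.96), and Cyb5b, Hdac5 and Ripply2 most like Vgf (0.97, 0.96 and 0.94). All points share the 8 arrays, 2 ages and 3 slides, and values of this height are found by searching many genes over few arrays.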

How the data were processed

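For each of the 8 arrays the authors deposited scanner intensities on a linear scale. Per the file headers they came from Agilent Feature Extraction 10.7.3.1, with an array design on build mm9, so no probe coordinates are given. The deposited flags for outliers, saturation and signal well above background were used as given. The deposited table of the whole series was not used, since its columns match the local background of the arrays, and all but 1 match the array of another sample than the column names, some of them one of the other age. Each array was assigned to the sample with which its file was deposited, every value rests on this assignment, and it was not tested. Control and outlier spots (127 to 190 per array) were left out. Median spot intensities were normalized by an own implementation of variance stabilising normalization (1 offset and 1 scale per array, least trimmed squares with quantile 0.9, 7 iterations, generalized log2), which understates changes of dim probes. Repeated spots were averaged. In limma 3.58.1 (R 4.3.3) age was the only term of the linear model, fitted to probes with 3 or more usable arrays per group, with eBayes and Benjamini-Hochberg adjustment over all 39408 probes. Normalization type, model and thresholds followed the study's methods. The procedure was tested on simulated data, where changes larger than that of any member probe were put into probes above the median brightness. That test does not cover dim probes or changes of the size found for the members.

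Probes were named by their accession through RefSeq genes of GRCm38.p6 (26055 of 39429 probes, 66.1%). Probes with other accessions, some of which may read members, stayed unnamed. The members and lists were chosen with earlier results of these data known. Named genes were all members, direct binding partners, and pathway genes with a called probe. The 3.24-fold figure for Mmp3 sets the 29M mean against 3M values raised, array by array, to the dimmest normalized value that passed the background flag. Alternatives were another normalization, background correction or input signal, outliers kept, only bright probes, slide or replicate number as a block, another prior, a stricter threshold, and each array left out. A few genes of the pathway lists entered the counts and medians and are not reported here by name.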

Additional observations from a re-analysis of the deposited data

Results flagged for a closer look

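Within each group of 4 arrays, the highest and the lowest array were looked at again when they lay far from the next one, measured as the share of the group's range that this gap makes up. Of 50 groups of values examined, 7 held such an array, where chance gives about 2.5 (1 in 20). That figure holds for independent groups, whereas these share the same arrays and some are probes of the same gene. Some were also examined because they had been called, and replicate 1 of 3M recurs among the flagged arrays.

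Among the members, replicate 4 of 29M stood above the others of its group for the Ntrk2 probe A_65_P04961 (gap 0.910 of the range), at 14.75 against 14.29 to 14.33. Without it the change of that probe was 0.16, against 0.27 with it. Replicate 1 of 3M stood below its group for the Ntrk3 probe A_55_P2056533 (gap 0.836), at 13.07 against 13.27 to 13.32.

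Among the other genes, replicate 1 of 29M was low for Gfra2 (gap 0.839), at 13.51 against 13.71 to 13.75. Replicate 3 of 3M was low for Ntf5 (gap 0.873), at 7.57 against 8.36 to 8.48. Replicate 1 of 3M was high for Cntfr (gap 0.836), at 13.02 against 12.57 to 12.64, for Mmp7 (gap 0.870), at 7.35 against 6.81 to 6.88, and for Mmp3 (gap 0.972), at 6.01 against 5.03 to 5.06, where none of the 3M arrays was well above background.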

How the results depend on the processing

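Over 17 alternative settings the 12 member probes gave 204 values, of which 193 kept the direction and the side of the threshold. The 8 weaker ones were all those of the called Ntrk3 probe, and 3 turned in sign when 1 array was left out. Leaving out arrays gave -0.114 to 0.0687 for Vgf, -0.134 to 0.0232 for Ntf3, -0.105 to 0.0229 for the Ntrk3 probe A_66_P118329 and -0.0740 to 0.226 for Ntf5. The direction of the called Ntrk3 probe held in all 17 settings. The number of member probes called lower, and of member genes with a called probe, was 0 under the scaling to the 75th percentile, under the replicate block and at an adjusted p under 0.05, and ranged from 0 to 1 when an array was left out. Pathway genes called higher were 1 under that scaling and 1 at an adjusted p under 0.05, and pathway genes called lower were 1 with normexp and quantile normalization, 1 under the replicate block and 1 at an adjusted p under 0.05. When an array was left out, they ranged from 0 to 4 and from 1 to 5. No pathway gene was called higher without replicate 2 of 3M, replicate 1 of 29M or replicate 2 of 29M, and 5 were called lower without replicate 1 of 3M. The cause was not tested. For pairs of Ntrk3 probes with small differences the sign turned: that of A_66_P118329 and A_52_P500274 was -0.0437 (0.10 as reported) with either use of processed signals, and that of A_52_P500274 and A_55_P2056533 was -0.0490 (0.04 as reported) with slide as a fixed block and -0.0306 to 0.138 when an array was left out.

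The replicate number was not taken as a pairing. The deviations of same-numbered samples from their group means correlated across probes at -0.24, 0.21, -0.23 and 0.07 for replicates 1 to 4, and only replicate 4 correlated best with its own number. With the replicate block, 271 probes were higher and 147 lower over the whole array, against 497 and 321. Brightness over background limits the values of Gdnf and Mmp3.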
